A study of Mus musculus with 3 samples.

Results

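The T cells and natural killer (NK) cells of a mouse fracture callus were described from single-cell RNA counts. A cell barcode entered the set when it held at least 3 unique molecular identifiers (UMIs, each standing for 1 captured RNA molecule) over Cd3e, Cd3d, Cd3g, Nkg7 and Gzma, with S100a8 and S100a9 below 2% and Col2a1 below 1% of its UMIs. Barcodes under 500 detected genes or above 10% mitochondrial UMIs were left out beforehand. The rule found 94 barcodes of 5463 kept, of which 76 came from the control library, 10 from the PTH library and 8 from the YKL library. The members were thus chosen by their measured counts of these genes, so the levels of the 5 genes and the contrast of the barcodes with the rest describe the choice and are not findings.

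The calluses came from female C3H/HeJ mice aged 9 weeks, taken 7 days after the femur was pinned and broken at mid-shaft, and no engineered allele is named for any group. One group received the vehicle PBS, one received 100 µg/kg of parathyroid hormone 1-34 (PTH), a hormone fragment that builds bone, and one received 15 mg/kg of YKL-05-099 (YKL), a small molecule that inhibits salt-inducible kinases. All agents were given as daily subcutaneous injections. The callus was digested with collagenase, avoiding marrow, and each group gave 1 library, so no difference between groups has a replicate or a test. How many mice a library pools is not known from the labels.

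Alpha-beta T cells carry a receptor built from Trac and Trbc chains, gamma-delta T cells one built from Trdc and Tcrg chains, and both signal through the CD3 chains. NK cells have no such receptor and act through germline-encoded activating and inhibitory receptors and through granules that hold granzymes and perforin. In healing bone, lymphocytes are known as early sources of cytokines, and IL-17 from gamma-delta T cells is known to act on cells that form bone.

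The 3 libraries held 8021, 5286 and 1500 barcodes with 55250651, 33981167 and 19424073 UMIs for control, PTH and YKL. The T and NK barcodes were small: their median was 2637 UMIs in control, 2287 in PTH and 5553 in YKL, against 12089.5, 12365 and 25961 in the other kept barcodes. Their medians of detected genes were 1005, 920 and 1395. Pairs of libraries shared between 2 and 8 barcode sequences, but no T or NK barcode was among them.

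Some barcodes carried RNA of a second cell type. Shares and many ratios are given with and without them, while other ratios are given only without them. In control, 7 barcodes held 12.6% to 70.7% haemoglobin UMIs, while no other member exceeded 2.62%. A further 3 control barcodes held at least 1% of their UMIs in genes of another lineage. Of these, 2 NK barcodes with 10311 and 19741 UMIs were rich in fibroblast and bone collagens, and an unresolved barcode of 15298 UMIs held 156 UMIs of progenitor genes. In PTH an NK barcode of 9443 UMIs was rich in endothelial genes. Leaving out these 11 mixed barcodes left 66, 9 and 8 members. No platelet gene had a UMI in any member. The B-cell genes Cd79a and Ms4a1 were at 0 in the members of all 3 libraries, but other listed B-cell genes were not. Ighm had 7 UMIs in 3 of 4 PTH and 3 in 3 of 5 YKL alpha-beta T barcodes, and 3 in 3 of 32 control NK barcodes. Ebf1 had 23 UMIs in 2 control NK barcodes. The macrophage genes C1qc, Csf1r, Adgre1 and Cd68 were at 0 in the members of all 3 libraries. In control members 6 of 12 macrophage genes had a UMI, with 74 UMIs in all and at most 6 in a barcode. Most of those in the 32 control NK barcodes were Ccr2, with 22 UMIs in 13 barcodes, and Ctss, with 8 in 8. Lyz2 had 3 UMIs there, and C1qa and C1qb 1 each. Haemoglobin and red-cell genes were in every member, with a median of 27.5 UMIs per barcode in control, 3.5 in PTH and 8.5 in YKL.

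The labelled cell types were described by their markers beside chondrocyte barcodes, which the Col2a1 limit kept out of the set. Cd3e, a signalling chain of the T cell receptor and a selecting gene, was detected in 36.8% of control members and in 0.0633% of 1579 control chondrocyte barcodes, whose median depth was 17085 UMIs, a contrast that the selection favours. Ncr1, the NK receptor NKp46, which the selection did not use, was detected in 43.4% against 0.0633%. Ccl5, a chemokine also outside the selection, was detected in 46.1% against 0.38%. Thinned to 1000 UMIs per barcode, Ccl5 was found in 40.8% of members and in 0.0635% of the 1574 chondrocyte barcodes deep enough. Col2a1, a collagen that chondrocytes make, had at least 1 UMI in 89.5% of members and in 51.3% after thinning, at no more than 0.199% of a member's UMIs.

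Genes that stood highest in control members over the 2868 other kept control barcodes followed the same lineages, as a description of the choice. Besides the selecting genes, they included Trbc1 with 136 UMIs against 2, Ncr1 with 128 against 7, the chemokine Xcl1 with 82 against 7, the pore protein gene Prf1 with 79 against 7, the kinase gene Txk with 127 against 15 and Ccl5 with 1791 against 327. Ms4a4b, a membrane protein of lymphocytes, held 317 against 36 UMIs, and Lck, the kinase that starts T cell receptor signalling, held 60 against 11.

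The edge of the selection mattered at one place, the neutrophils. In control, 4 members had exactly 3 UMIs of the selecting genes, and 4 barcodes with 2 UMIs lay just outside. The limit on S100a8 and S100a9 removed 59 control barcodes whose share of these alarmin genes was at least 6.03%, while no member exceeded 0.0918%. Those 59 barcodes held 220 UMIs of Cd3d, 3 of Cd3g, 9 of Nkg7, and none of Cd3e, Gzma, Trac, Trbc1, Trbc2 or Ncr1. Cd3d was detected in 204 of all 480 control neutrophil barcodes (42.5%, 95% interval 38.0% to 47.1%, exact Clopper-Pearson) and Cd3e in 0 of 480. Cd3d was thus shared by T and neutrophil barcodes, and Cd3e was not. The Col2a1 limit removed 2 control barcodes, at 1.58% and 2.31%.

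T and NK barcodes made up 2.58% of kept barcodes in control (76 of 2944, 95% interval 2.04% to 3.22%), 0.523% in PTH (10 of 1913, 0.251% to 0.959%) and 1.32% in YKL (8 of 606, 0.572% to 2.58%). These intervals are exact Clopper-Pearson, and all intervals given cover counting error only, not the spread between mice. Intervals of ratios of summed UMIs also leave out the spread between barcodes. Chondrocyte barcodes, with Col2a1 at or above 1%, filled much of each library. Without them the shares were 5.63% of 1351 in control, 0.823% of 1215 in PTH and 3.67% of 218 in YKL, so the order of the libraries stayed. Among barcodes with a UMI of Ptprc, the CD45 gene of blood cells, the order changed: 9.34% in control (62 of 664, 7.23% to 11.8%), 6.20% in PTH (8 of 129, 2.72% to 11.9%) and 14.8% in YKL (8 of 54, 6.62% to 27.1%), with intervals that overlap. In control, PTH and YKL, neutrophil barcodes numbered 480, 21 and 14, B-lineage barcodes 21, 5 and 6 and C1q macrophage barcodes 60, 43 and 8, and their part in the shares was not tested. These classes are cuts on counts outside the set: S100a8 and S100a9 at or above 2% for neutrophils, then at least 3 UMIs of the C1q genes for macrophages, then at least 3 of Cd79a and Cd79b for B-lineage barcodes. Without the mixed barcodes the shares of kept barcodes were 2.24%, 0.470% and 1.32%. With a mitochondrial maximum of 5% they were 0.461%, 0.278% and 0.607%, which turns the order of control and YKL. These rest on only 10, 3 and 3 members.

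**Figure D1:**
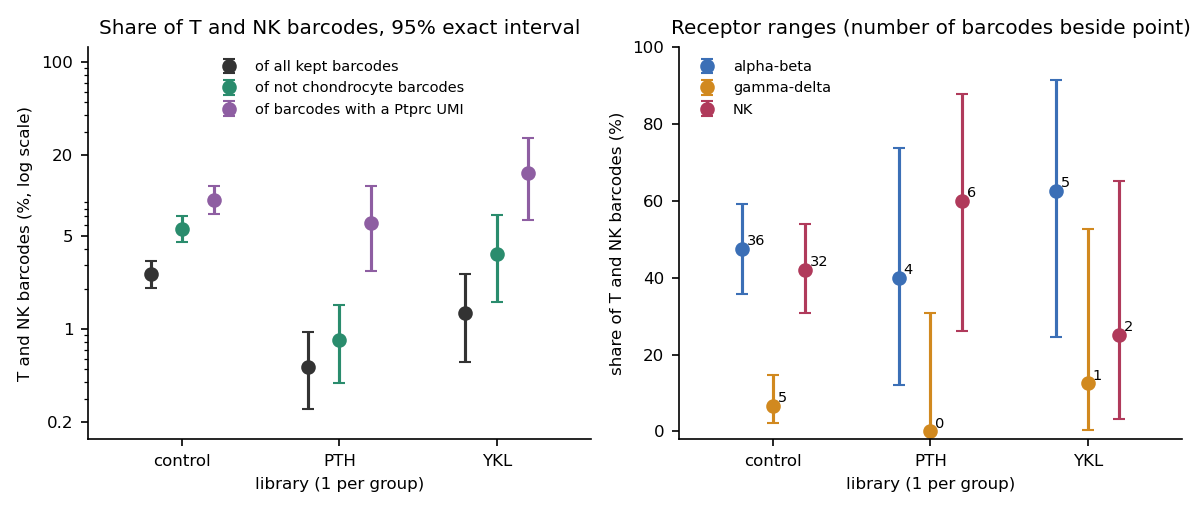
Left, T and NK barcodes as a percentage (log axis) of all kept barcodes, of kept barcodes that are not chondrocyte barcodes and of kept barcodes with a Ptprc UMI, for 1 library per group; right, the percentage of T and NK barcodes in each receptor range, with the number of barcodes beside each point. Bars are 95% exact intervals: PTH lies lowest by both broad denominators (0.523% and 0.823%), while the 3 intervals among Ptprc barcodes overlap.

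The receptor genes split the members into ranges, which are cuts on counts and not proven types. A barcode with at least 2 CD3 UMIs was placed with gamma-delta T cells when it had Trdc, at least 2 UMIs of Trdc and Tcrg constant genes, and more of these than of Trac. Other barcodes with at least 2 CD3 UMIs and at least 2 of Trac, Trbc1 and Trbc2 were placed with alpha-beta T cells. Barcodes with at most 1 CD3 UMI and at least 2 UMIs of NK receptor genes or Eomes were placed with NK cells. In control this gave 36 alpha-beta (47.4%, 35.8% to 59.2%), 5 gamma-delta (6.58%, 2.17% to 14.7%), 32 NK (42.1%, 30.9% to 54.0%) and 3 unresolved barcodes. PTH had 4 alpha-beta and 6 NK barcodes and no gamma-delta barcode, and 0 of 10 allows a share of up to 30%. YKL had 5 alpha-beta, 1 gamma-delta and 2 NK barcodes. The NK share was 60.0% in PTH (26.2% to 87.8%) and 25% in YKL (3.19% to 65.1%), and all of these intervals overlap that of control. Without the mixed barcodes control held 33 alpha-beta, 5 gamma-delta, 27 NK and 1 unresolved barcode, and PTH 5 NK barcodes.

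The cuts leave some barcodes near a border. In control, 5 alpha-beta barcodes had just 2 UMIs of Trac, Trbc1 and Trbc2, 15 of the 36 had no Trac UMI, and 4 had at least 2 UMIs of the NK receptor genes. Trbc1 or Trbc2 was also detected in 24 of the 32 control NK barcodes and Trdc in 8, while Cd3e was in none. Trbc1 and Trbc2 are near-identical copies, as are several Tcrg constant and Klra genes, so how reads split between them is uncertain. Barcodes below are numbered by rising UMI total within their library and range.

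**Figure D2:**
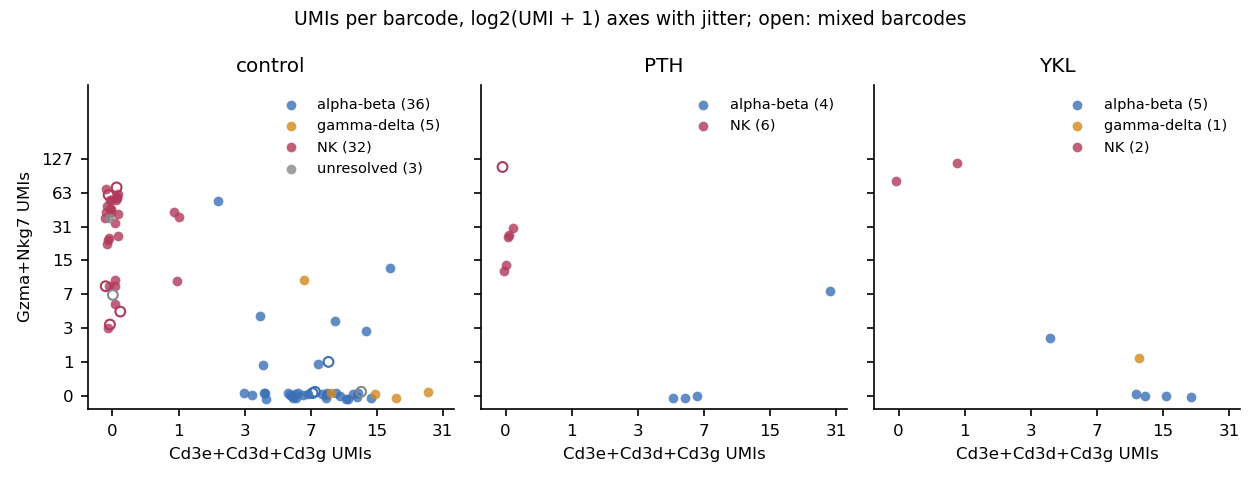
UMIs of Cd3e, Cd3d and Cd3g (x axis) against UMIs of Gzma and Nkg7 (y axis) in each T and NK barcode, both on log2(UMI + 1) axes with jitter, by library; colours give the receptor range and open circles the mixed barcodes. NK barcodes lie at 0 or 1 on the x axis and most T barcodes at 0 on the y axis, with 1 control alpha-beta barcode at 52 granule UMIs.

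Genes of naive and recirculating T cells were found in most of the 36 control alpha-beta barcodes. Cd3d, Cd3g and Cd3e, which the cut used, were found in 34, 32 and 22 barcodes, Trbc2 in 32, Trbc1 in 18 and Trac in 21. Klf2, the factor that keeps T cells circulating, was found in all 36 with 195 UMIs. Il7r, the receptor for the survival cytokine IL-7, had 70 UMIs in 23 barcodes. The lymph-node homing and naive-state genes were sparse but widespread: Lef1 had 37 UMIs in 18 barcodes, Ccr7 19 in 12 and S1pr1 12 in 11. Ccr7 or Lef1 was found in 23 of 36 alpha-beta barcodes and in 2 of 32 NK barcodes. All 5 YKL and 3 of 4 PTH alpha-beta barcodes also had at least 1 of them.

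Genes of T cell identity and receptor signalling were also found in many control alpha-beta barcodes. Tcf7, a transcription factor of naive and memory T cells, had 28 UMIs in 18 barcodes, and Bcl11b, which holds T cell identity, 21 in 16 against none in 32 NK barcodes. The adaptor Lat had 33 UMIs in 18 barcodes, the costimulatory receptor gene Cd28 39 in 20, and Skap1, an adaptor for integrin activation, 46 in 24. Cd28 and Skap1 were not limited to this range, with 22 UMIs in 10 and 25 in 15 of the 32 control NK barcodes. The co-receptors that divide helper from cytotoxic T cells could rarely be read: Cd4 was found in 2 barcodes, Cd8a or Cd8b1 in 5, and none of the 3 in 29 of 36. In YKL 3 of 5 alpha-beta barcodes had Cd4 and 1 had Cd8a or Cd8b1, and in PTH 1 of 4 had Cd4 and 1 had Cd8b1.

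A few alpha-beta barcodes carried effector genes. Ccl5 was found in 5 of the 36 control alpha-beta barcodes with 90, 41, 13, 5 and 4 UMIs, so 2 barcodes held most of its 153 UMIs. Barcode 27, with the 90, also held 41 Gzma, 21 Tyrobp and 10 NK receptor UMIs beside 2 CD3 and 4 Trbc1 UMIs and no Trac. It lies on the CD3 cut and held all the Gzma of this range. Barcode 22, with 41 Ccl5 UMIs, had 18 CD3, 12 Nkg7 and 3 Cxcr6 UMIs and no NK receptor UMI. Barcode 32 held 16 Tyrobp, 4 Fcer1g and 9 Xcl1 UMIs with 4 CD3 UMIs and no Ccl5. Barcodes 22 and 27 thus differ in the very genes that set NK cells apart, and barcode 32 resembles 27 in Tyrobp while lacking its granzyme.

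Helper and regulatory genes were scarce in control. The B-cell helper ligand Cd40lg had 10 UMIs in 4 alpha-beta barcodes and the checkpoint receptor gene Ctla4 had 6 in 4. Foxp3, the defining factor of regulatory T cells, and Il10 had no UMI in the members of any library. The type 2 cytokines Il4, Il5, Il13 and Areg were also at 0 in all 3 libraries. At the depth of the control members a count of 0 allows up to 11.3 CPM (UMIs divided by the summed UMIs of the same barcodes and scaled to the usual counts-per-million unit). In the smaller PTH and YKL sets it allows up to 98.1 and 73.0 CPM. Over T barcodes alone the bounds are 24.7 CPM in control, 311 in PTH and 105 in YKL. Tnfsf11, the osteoclast-forming ligand RANKL, had 1 UMI in control members, in an NK barcode, and none in PTH or YKL.

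**Figure D3:**
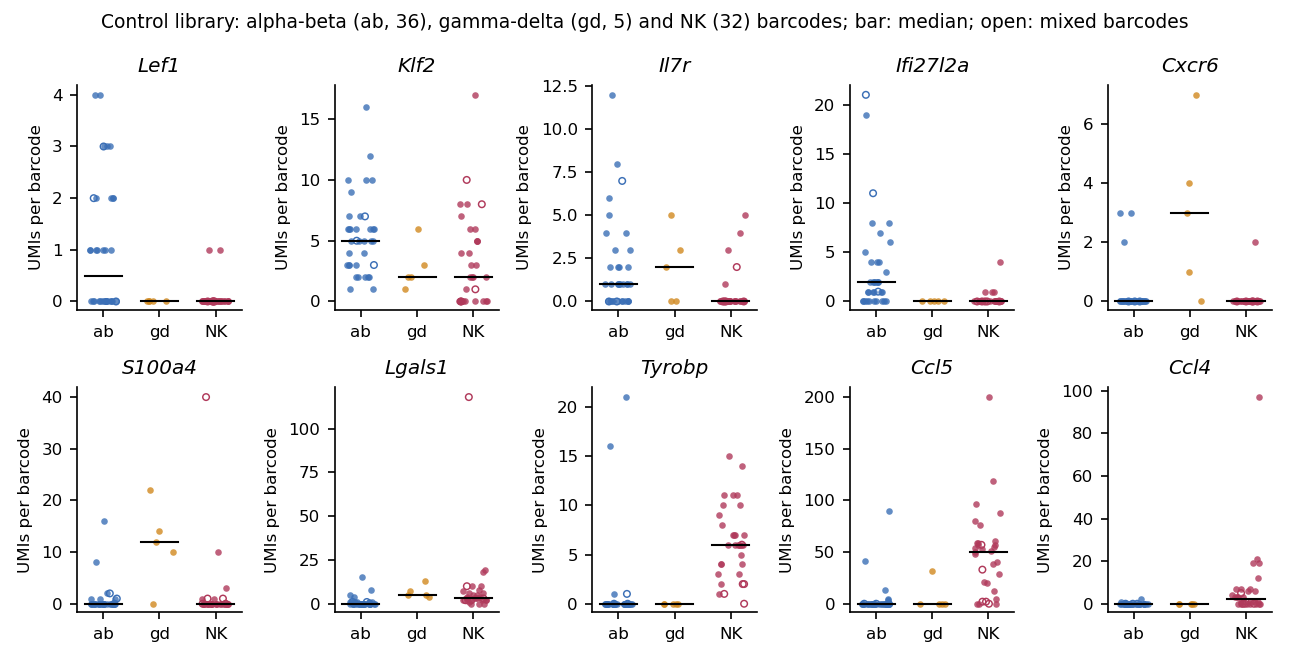
UMIs per barcode of 10 genes in the control alpha-beta (ab, 36), gamma-delta (gd, 5) and NK (32) barcodes; each point is 1 barcode, bars are medians and open circles are mixed barcodes. Lef1 and Ifi27l2a lie mostly in alpha-beta barcodes, Cxcr6 in gamma-delta barcodes, and Ccl5, Ccl4 and Tyrobp in NK barcodes. S100a4 has its highest median in gamma-delta barcodes, but its highest point, at 40 UMIs, is a mixed NK barcode.

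The gamma-delta range held 6 barcodes, 5 in control and 1 in YKL, with 2141, 2442, 2585, 2641 and 3938 UMIs in control and 2791 in YKL. Trdc, which placed them, had 3, 3, 10, 2 and 7 UMIs in control barcodes 1 to 5 and 7 in YKL. Cd3g had 1, 6, 20, 13 and 16 UMIs and 7 in YKL. Barcode 1 was the lowest in Cd3g, and no Tcrg constant gene was found in it or in barcode 3.

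Variable segments of the receptor were not used by the cuts. Of 250 T cell receptor variable and joining genes in the files, 10 had a UMI in any member, and 16 members had one. Only Trdv4 and Trgv2 reached 3 UMIs over all members. Trdv4, a delta variable segment known for its use by gamma-delta T cells that leave the thymus before birth, had 14 UMIs in 3 of the 5 control gamma-delta barcodes and 2 in the YKL one, against 1 UMI in the 36 alpha-beta and 3 in the 32 NK barcodes of control. The other kept barcodes, which are not T or NK barcodes, held 8 Trdv4 UMIs in control, 7 in PTH and 4 in YKL. Trgv2 had 3 UMIs in 1 control gamma-delta barcode and 1 in the YKL one, and none in the other control barcodes. Both genes have 2 exons, and Trdv4 lies at chr14:54074905-54075515 on the plus strand and Trgv2 at chr13:19336573-19337167 on the minus strand (mm10, annotated as variable genes). Their sequences are shown because, among the T and NK barcodes, most of their UMIs lay in the gamma-delta range. Printed are the last 90 coding bases of each, 5′ to 3′ on the gene's strand, from the GENCODE transcripts of the mm10 reference, with the codon of the conserved cysteine that opens the third complementarity-determining region in capitals. The C3H/HeJ alleles were not examined.
Trdv4: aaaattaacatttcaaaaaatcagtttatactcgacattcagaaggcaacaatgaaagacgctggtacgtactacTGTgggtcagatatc
Trgv2: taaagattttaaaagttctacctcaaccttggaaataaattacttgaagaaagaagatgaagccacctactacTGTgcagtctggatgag
Downstream of that codon 12 bases of Trdv4 and 14 of Trgv2 remain, where joining to the next segment begins in a rearranged gene.

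Genes of the IL-17 programme were concentrated in gamma-delta barcodes 2 to 5. The 20 listed genes summed to 79 UMIs (5747 CPM) in the 5 control gamma-delta barcodes and to 34 UMIs (316 CPM) in the 36 alpha-beta barcodes. None of the 20 reached the 50 UMIs over both ranges that a ratio required. Some of the list was also found in the 32 control NK barcodes. There Il18r1 had 21 UMIs in 13 barcodes, Rora 9 in 7, Tmem176b 9 in 3 and Tmem176a 5 in 2. Cd163l1, a scavenger receptor of IL-17-producing gamma-delta T cells, had 0, 4, 2, 2 and 0 UMIs in control and 4 in YKL, and no UMI in alpha-beta or NK barcodes of control. Tmem176a and Tmem176b, membrane proteins of type 17 lymphocytes, were found in control barcodes 2 to 5 and in the YKL barcode, with 2, 2, 5 and 4 UMIs and 4 for Tmem176a. Blk, a Src-family kinase of this lineage, had 0, 1, 1, 0 and 4 UMIs. Barcodes 2 to 5 thus each held several of these genes, while barcode 1 had none of them.

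The cytokine itself was caught in 1 barcode. Il17a had 11 UMIs in control barcode 2 and none in any other member, and Il17f had none. Its upstream receptor gene Il23r had 1 UMI each in barcodes 2 and 4. Cxcr6, a homing receptor of tissue-resident lymphocytes, had 0, 7, 3, 1 and 4 UMIs in control and 3 in YKL, against 8 UMIs in 3 of the 36 alpha-beta barcodes. The inhibitory receptor gene Pdcd1 had 4 UMIs in 3 gamma-delta barcodes and none in alpha-beta or NK barcodes of control. Barcode 1 differed throughout: it held 9 Nkg7, 32 Ccl5, 4 Eomes and 3 Klrd1 UMIs, genes at 0 in barcodes 2 to 5.

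Among 213 genes with at least 50 UMIs over the unmixed control gamma-delta and alpha-beta barcodes, 7.51% were at least 2-fold higher in gamma-delta and 5.63% at least 2-fold lower. The highest by the near end of its interval was S100a4, a calcium-binding protein of migrating cells, with 0, 10, 12, 14 and 22 UMIs in the 5 gamma-delta barcodes and a ratio of 13.3 (95% interval 8.38 to 21.6). Lgals1, the lectin galectin-1, had 4, 5, 5, 13 and 7 UMIs and a ratio of 5.95 (3.63 to 9.71). S100a6 and Itm2b followed at 5.39 and 4.92, the small GTPase gene Cdc42 stood at 3.61, and Cd3g, which chose and placed the barcodes, at 4.09. On the other side, Ifi27l2a, an interferon-induced gene, had no UMI in gamma-delta barcodes against 88 in alpha-beta, which with a floor of 3 counts is a ratio of at most 0.227. Ms4a6b, a membrane protein of lymphocytes, had 0 against 64 UMIs (at most 0.312), and Ms4a4b 7 against 133 (0.350, 0.138 to 0.742). With the 3 mixed alpha-beta barcodes included, 8.41% of 226 genes stood at least 2-fold higher, 7.08% 2-fold lower, and the S100a4 ratio was 14.2.

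**Figure D4:**
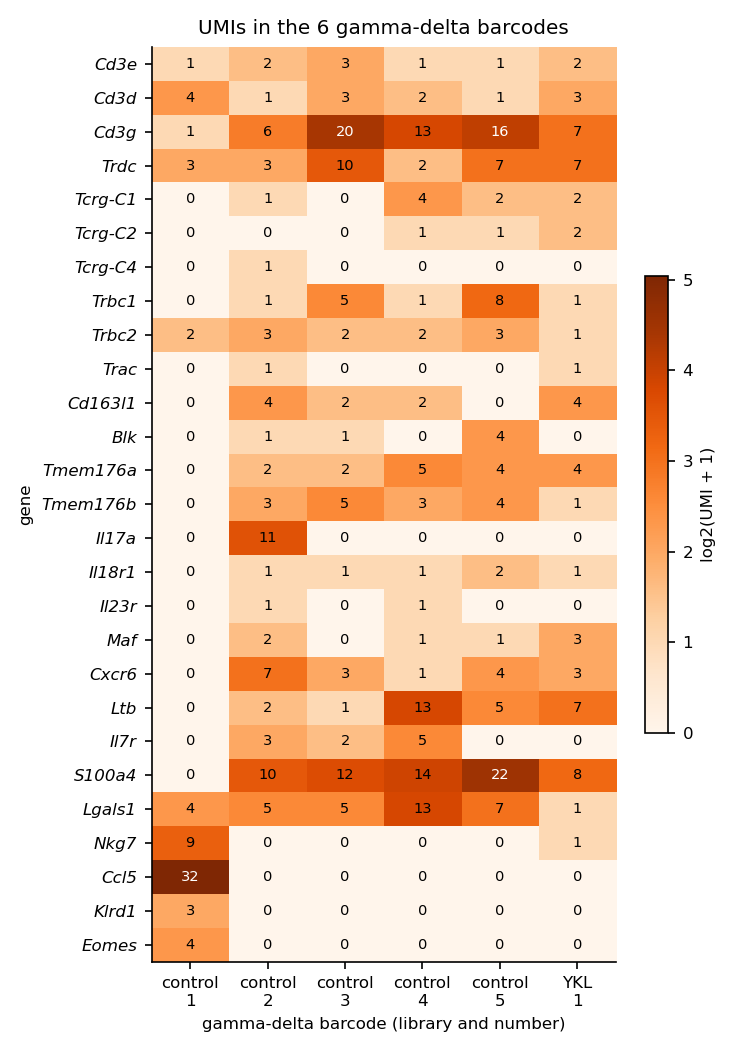
UMIs of receptor, type 17 and effector genes (rows) in the 5 control gamma-delta barcodes and the YKL one (columns), with the count printed in each cell and colour on a log2(UMI + 1) scale. Control barcode 1 carries Nkg7, Ccl5, Klrd1 and Eomes, while control barcodes 2 to 5 and the YKL barcode carry Tmem176a, Tmem176b, Cxcr6 and S100a4, and Il17a is in 1 barcode.

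The 32 control NK barcodes carried the granule and receptor genes of NK cells at high and uneven levels. Gzma, a granzyme that the selection used, had 885 UMIs in 25 barcodes. Nkg7, a granule membrane protein that it also used, had 214 in 31. Prf1 had 70 UMIs in 25 barcodes, Gzmb 35 in 11, and Serpinb9, which shields cells from their own granzyme B, 35 in 21. Of the 35 Gzmb UMIs, 18 came from 1 barcode.

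Receptors and adaptors were found in most NK barcodes. Ncr1 and Klrd1, which the cut used, had 118 UMIs in 31 barcodes and 64 in 27. Klrk1, the activating receptor NKG2D, had 49 in 24, Tyrobp, the adaptor DAP12, 200 in 31, and Fcer1g, the Fc receptor gamma chain, 103 in 29. Il2rb, the shared receptor chain for IL-2 and IL-15, had 47 in 23, and Il18rap, a chain of the IL-18 receptor, 24 in 18. Of the Klra genes, which encode Ly49 receptors, Klra4, Klra7 or Klra9 was found in 12 of 32 barcodes and Klra8 in none. This gene cluster is known to differ between mouse strains, and the counts rest on the mm10 reference. Eomes, the factor of mature NK cells, had 19 UMIs in 11 barcodes, Tbx21 8 in 7, and Itga1, an integrin of tissue-resident innate lymphocytes, 1 UMI.

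Chemokines made up a large part of the NK counts. Ccl5 had 1523 UMIs in 28 of 32 control NK barcodes, with a lowest value of 0, a median of 50.5 and a highest of 200. Ccl4 and Ccl3, which draw monocytes and other cells, had 228 UMIs in 22 and 97 in 19 barcodes, of which barcode 5 alone held 97 and 37. Xcl1, which draws cross-presenting dendritic cells, had 71 UMIs in 15, with 33 in barcode 28. Ccl5 was thus found in more of the barcodes than Ccl3, Ccl4 or Xcl1, and 1 barcode held a large part of the UMIs of each of these 3. Ifng, the macrophage-activating interferon gamma, had 10 UMIs in 6 barcodes.

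Of the 32 control NK barcodes, 9 had 10 or fewer Gzma and Nkg7 UMIs, and the others had 22 to 70. Among these 9, 3 were haemoglobin-rich, and 7 of all 32 had no Gzma. Barcodes 26 and 29 held 46 and 105 UMIs of cell-cycle genes, with 4 and 8 of the proliferation marker Mki67, and no Gzma or Ccl5. Barcode 22 held 20 UMIs of Ltb, the gene of lymphotoxin beta, and 4 of Il7r, with no Ccl5. Barcode 19 held 5 Il7r and 2 Cxcr6 UMIs with 5 Ccl5. In the other control NK barcodes cell-cycle genes had at most 5 UMIs. In YKL, NK barcode 2 held 53 cell-cycle UMIs together with 56 Gzma and 82 Ccl5, so cycling and granule genes occurred in the same barcode there.

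NK and T barcodes of control were set against each other over summed counts, without the mixed barcodes (27 NK and 38 T). Among 390 genes with at least 50 UMIs over both, 13.3% were at least 2-fold higher in NK and 5.13% at least 2-fold lower, and the median log2 ratio was 0.05. A gene can reach 50 UMIs through the side where it is high, so the counts per list describe the genes that could be read. Ccl4 had 222 UMIs in NK against 3 in T barcodes, a ratio of 106 (95% interval 35.8 to 517), and Ccl3 94 against 1 (135, 23.6 to 5369). Ccl5 was 11.1-fold higher (9.48 to 13.0), Prf1 22.2-fold (8.24 to 84.0), Fcer1g 19.0-fold (8.87 to 48.6) and Irf8, a transcription factor of NK and myeloid cells, 34.8-fold (11.5 to 173). Gzma, at 26.6-fold, and Ncr1, at 14.7-fold, were used to choose or place the barcodes.

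By list, 6 of 22 NK receptor genes could be read and all 6 were at least 2-fold higher in NK, with a median log2 ratio of 2.99. They were Fcer1g, Tyrobp, Klrk1, Xcl1 and the genes Ncr1 and Klrd1 that placed the barcodes. Of 12 granule genes 5 could be read and 4 were higher (median 2.63), with the selecting genes Gzma and Nkg7 among them. Srgn, the proteoglycan that packs granules, was 1.51-fold higher and present in both. Of 21 cytokine genes 5 could be read and 4 were higher (median 3.47): Ccl3, Ccl4, Ccl5 and Xcl1. The exception, Ltb, had a ratio below 1. Antigen presentation genes of MHC class I stayed near the middle, with 4 of 10 readable, none past 2-fold, and H2-K1 at 0.945 and H2-D1 at 1.21. The 8 readable genes of the 14 that tissue digestion can induce likewise had none past 2-fold in either direction (median -0.19), and 1 was at least 2-fold lower with the mixed barcodes.

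T barcodes were higher in a smaller group of genes. Ms4a6b had a NK over T ratio of 0.134 (0.0475 to 0.308), Ifi27l2a 0.114 (0.0445 to 0.245), Il7r 0.255 (0.130 to 0.463) and Emb, an immunoglobulin-family membrane protein, 0.404 (0.239 to 0.655). With the mixed barcodes the Ifi27l2a ratio was 0.0584. S100a4 had a ratio of 0.247 (0.132 to 0.430) without the mixed barcodes and of 0.639 with them, where 1 mixed NK barcode held 40 of 57 UMIs, so it passed 2-fold only without them. The S100a4 counts of T barcodes came largely from the gamma-delta range described above. Of 20 T cell signalling genes 5 could be read and only Fyb, an adaptor for adhesion, was at least 2-fold lower in NK, while Lck at 1.85 and Txk at 1.72 were higher without reaching 2-fold. With the mixed barcodes included, 17.7% of 509 genes stood at least 2-fold higher in NK and 8.64% 2-fold lower. The genes ranked highest then included Mfap5, Meg3, Igfbp5, Igfbp6 and Fbn1, stromal genes carried by the 2 collagen-rich barcodes.

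**Figure D5:**
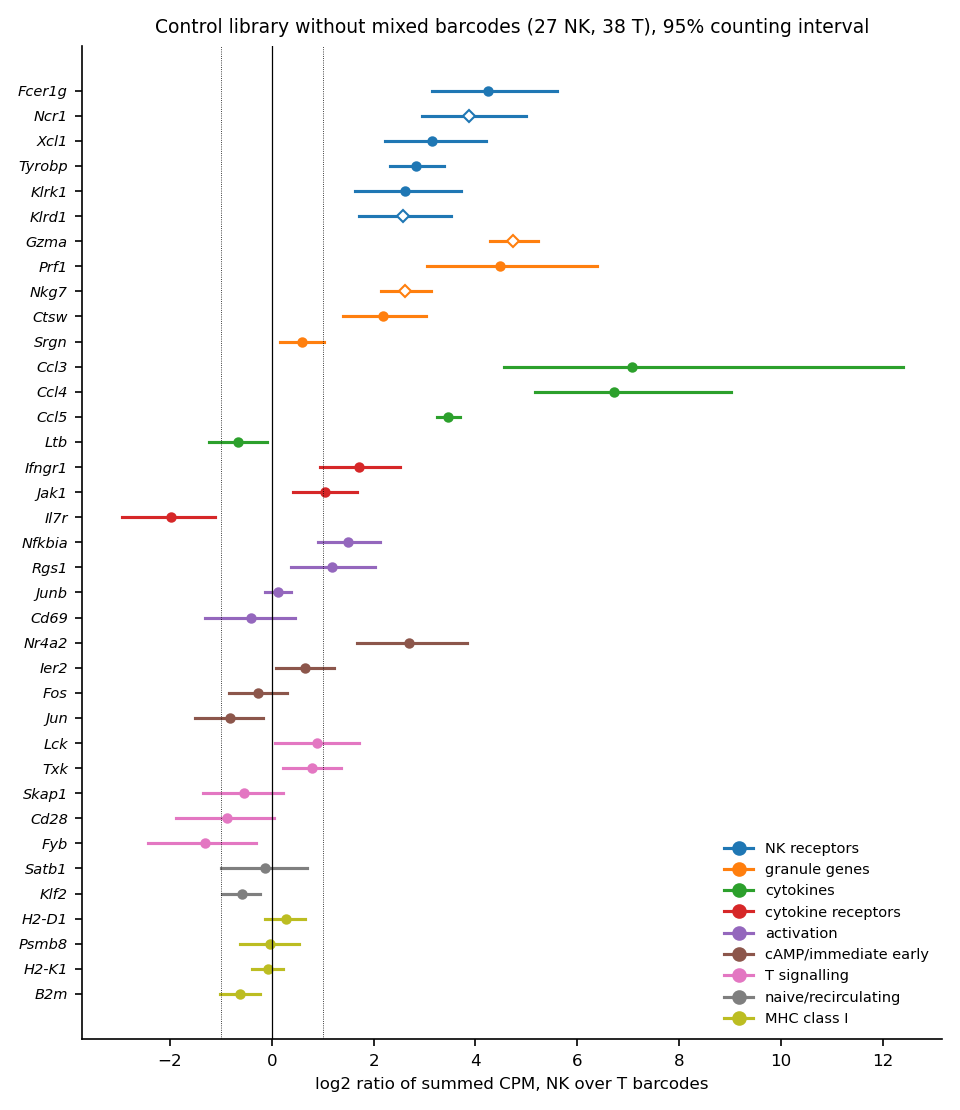
Log2 ratio of summed CPM in 27 NK over 38 T barcodes of control, without mixed barcodes, for the listed genes with at least 50 UMIs over both; bars are 95% counting intervals, dotted lines mark 2-fold, colours give the list and open diamonds the genes that chose or placed the barcodes. Ccl3 and Ccl4 lie farthest to the right and Il7r farthest to the left, while the MHC class I genes lie near 0.

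The PTH library was set against control over the unmixed members, 9 barcodes against 66. Among 463 genes with at least 50 UMIs over both, 4.54% were at least 2-fold higher and 6.7% at least 2-fold lower in PTH (median log2 ratio -0.06). Cytokine genes stood highest, with 5 of 21 readable, 3 at least 2-fold higher and a median log2 ratio of 1.04. NK barcodes made up 60.0% of PTH members and 42.1% of control members. Ccl4 had 46, 7, 12, 10, 0 and 36 UMIs in PTH NK barcodes 1 to 6 (barcode 6 is mixed) and Ccl3 33, 1, 6, 0, 0 and 6. The unmixed PTH to control ratios were 3.0 for Ccl4 (2.29 to 3.89) and 3.62 for Ccl3 (2.45 to 5.27). Barcode 1, with 1009 UMIs the smallest of all members, held 46 of the 75 Ccl4 and 33 of the 40 Ccl3 UMIs of the unmixed PTH NK barcodes, so 1 barcode carries most of both differences. With the mixed barcodes, 6.16% of 649 genes stood at least 2-fold higher in PTH and 8.47% at least 2-fold lower, and the ratios were 4.28 for Ccl4 and 4.06 for Ccl3.

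In NK barcodes alone, 5 unmixed in PTH against 27 in control, 3.7% of 216 genes reached 2-fold above control and 6.48% 2-fold below. Ccl5 had 29, 35, 25, 49 and 15 UMIs in the unmixed PTH NK barcodes and a ratio of 0.685 (0.576 to 0.810). Gzma, a selecting gene whose level the choice of barcodes shapes, had 10, 15, 24, 20 and 6 UMIs and a ratio of 0.631 (0.491 to 0.800). Prf1 was higher at 2.37 (1.40 to 3.89), with 4, 7, 1, 10 and 1 UMIs, as was Ptprc at 2.20 (1.45 to 3.25). Ahnak, a large scaffold protein gene, was 2.87-fold higher (1.65 to 4.84), and in C1q macrophage barcodes of the same libraries it was 2.0-fold higher. The chromatin protein gene Hmgb2 was lower at 0.270 (0.0545 to 0.823). Control barcodes 26 and 29, rich in cell-cycle genes, held 19 and 40 of the 71 Hmgb2 UMIs. Npm1, a nucleolar protein gene, had a ratio of 0.147 (0.0175 to 0.548) without the mixed barcodes and of 0.605 (0.304 to 1.10) with them, where 1 PTH barcode held 10 of 12 UMIs. With the mixed barcodes the ratios were 1.82 for Ptprc, 1.99 for Ahnak and 0.755 for Ccl5, so Ptprc and Ahnak passed 2-fold only without them. The Gzma ratio was then 1.08 (0.914 to 1.28), with 92 Gzma UMIs in the mixed PTH barcode 6. Xcl1 had 18 of its 19 UMIs in PTH NK barcode 5, which also held 12 of 14 Rgs1 UMIs. Unlike Ahnak, other genes named here did not move the same way in C1q macrophages. There the PTH to control ratios were 0.773 for Ptprc, 1.11 for Hmgb2 and 1.13 for Npm1.

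In the 4 PTH T barcodes, all alpha-beta, 3.12% of 224 genes stood at least 2-fold above and 9.38% at least 2-fold below their level in 38 control T barcodes. Ifi27l2a had 3, 3, 0 and 33 UMIs and a ratio of 4.83 (3.22 to 7.11; 4.05 with the mixed control barcodes), which rests on barcode 4. That barcode had 28 CD3 UMIs and also held 5 Ctla4, 6 Ikzf2, 4 Tnfrsf4, 4 Tnfrsf18 and 2 Il2ra UMIs, genes known from regulatory and activated T cells, with 15 Ccl5 UMIs and no Foxp3. The other 3 PTH T barcodes had at least 1 UMI of Ccr7 each, and barcode 4 had none of Ccr7 or Lef1. Ifi27l2a was also 3.96-fold higher in PTH than in control C1q macrophages (3.48 to 4.52, 832 against 321 UMIs), while in chondrocytes its ratio was 0.595. Nfkbia, the inhibitor of NF-kB, had a ratio of 4.24 (2.11 to 8.05) and the immunoproteasome gene Psmb8 3.14 (1.78 to 5.29). Both were found in all 4 PTH T barcodes, but unevenly. For Nfkbia 1 barcode held 8 of 14 UMIs, and for Psmb8 1 barcode held 9 of 19. In C1q macrophages their ratios were 1.03 and 0.754. Trbc1 had no UMI against 103 in control, a ratio of at most 0.317 with the floor of 3 counts, while Trbc2 had 11 and a ratio of 1.03.

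Genes tied to the hormone's own pathway were too rare to compare. Pth1r, the receptor for parathyroid hormone, had 4 UMIs in control members, 1 in PTH and 2 in YKL. Sik1 had 6, 5 and 1 UMIs, Sik2 3, 1 and 0 and Sik3 5, 2 and 0, these being the salt-inducible kinases that YKL-05-099 inhibits. None of the 17 genes of the kinase list reached 50 UMIs in either library comparison. Of 17 cAMP and immediate early genes 7 could be read in PTH against control without mixed barcodes, with 2 at least 2-fold higher, none lower and a median log2 ratio of 0.44, beside 4.54% higher and 6.7% lower of all genes read. In YKL against control 7 could be read, none was at least 2-fold higher, 1 was lower, and the median was 0.06, beside 2.65% higher and 6.94% lower of all genes read. With the mixed control barcodes 8 could be read in YKL, 1 was higher, none was lower, and the median was 0.33.

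The YKL library gave 8 members, none mixed, against 66 unmixed control members. Among 490 genes with at least 50 UMIs over both, 2.65% were at least 2-fold higher and 6.94% at least 2-fold lower in YKL (median log2 ratio -0.03). With the mixed control barcodes these shares were 4.7% and 12.1% of 660. YKL members had a lower NK share, 25% against 42.1%, which moves with the lower Ccl3 and Ccl4 counts, and its part in them was not tested. Of 21 cytokine genes 5 could be read, none was higher and 2 were lower, Ccl4 at 0.293 (0.161 to 0.493) and Ccl3 at 0.273 (0.0977 to 0.616). Within NK barcodes alone the ratios were 0.394 for Ccl4 (0.217 to 0.664) and 0.372 for Ccl3 (0.133 to 0.840). Over all 32 control NK barcodes, barcode 5 held 97 of 228 Ccl4 and 37 of 97 Ccl3 UMIs. Thus 1 control barcode carries a large part of the control UMIs of both, and only 2 YKL barcodes are compared. Of 12613 UMIs in the YKL NK barcodes, 215 were Ccl5 and 17 Xcl1, against 1523 and 71 of 120336 in all control NK barcodes. The 17 Xcl1 UMIs lay in 1 barcode. Prf1 had 0 and 2 UMIs in the 2 YKL NK barcodes and a ratio of 0.188 (0.0223 to 0.708), whereas Gzma had 78 and 56 UMIs and a ratio of 1.03. Nkg7, like Gzma a selecting gene, had 30 and 28 UMIs and a ratio of 1.74 (1.28 to 2.35). With the mixed control NK barcodes the ratios moved to 0.628 for Ccl4 (0.346 to 1.06), 0.590 for Ccl3 (0.211 to 1.33), 0.273 for Prf1, 1.44 for Gzma and 2.59 for Nkg7, so the intervals of Ccl3 and Ccl4 then include 1. In the unmixed NK barcodes 0.901% of 222 genes stood at least 2-fold above control and 7.66% at least 2-fold below.

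In the 6 YKL T barcodes, 2.7% of 259 genes stood at least 2-fold above and 4.63% at least 2-fold below their level in control T barcodes. Ccl5 had 1 UMI in all 6 against 185 in control, a ratio of 0.0200 (0.000503 to 0.113). The control UMIs came from 6 of 38 barcodes, and alpha-beta barcodes 27 and 22 held 90 and 41 of them. Barcode 27 lies on the CD3 cut and carried Gzma and NK receptor genes. Gamma-delta barcode 1, another of the 6, carried Nkg7, Eomes and Klrd1. The ratio thus rests in large part on T barcodes that also held NK genes. Col10a1, the collagen of hypertrophic chondrocytes, was 2.99-fold higher in YKL members and 3.01-fold higher in YKL chondrocytes.

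Other YKL differences are given beside the same ratios in chondrocytes and C1q macrophages. Actg1, cytoplasmic gamma-actin, had 1, 2, 4, 4 and 1 UMIs in the YKL alpha-beta barcodes and ratios of 0.287 in T (0.154 to 0.495) and 0.463 in NK barcodes (0.278 to 0.730; 0.606 with the mixed control barcodes, short of 2-fold), against 1.11 in chondrocytes and 1.21 in C1q macrophages. Cited2, a transcriptional co-regulator, was lower in members at 0.158 (0.0186 to 0.596) and in macrophages at 0.366, and higher in chondrocytes at 1.99. Btg1, an anti-proliferative gene of resting lymphocytes, was 2.20-fold higher in YKL T barcodes (1.59 to 3.02), 1.77-fold in chondrocytes and 1.28-fold in C1q macrophages (0.863 to 1.87). Nfkbia was 2.46-fold higher in YKL T barcodes (1.40 to 4.24), against 1.33 in chondrocytes and 0.889 in C1q macrophages. Its 24 UMIs lay in 3 of the 5 YKL alpha-beta barcodes, with 13 in 1 of them, and the gamma-delta barcode had none. The Nfkbia ratio thus rests in large part on 1 barcode. S100a4 and Lgals1 were lower in YKL T barcodes at 0.340 and 0.205. In chondrocytes their ratios were 1.23 and 0.656, and in C1q macrophages 2.63 and 1.61, from 8 YKL macrophage barcodes. The control T barcodes included 5 gamma-delta barcodes, which held 58 of the 87 S100a4 UMIs and 34 of the 72 Lgals1 UMIs, against 1 gamma-delta barcode in YKL.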

How the data were processed

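Single-cell RNA was measured in 3 libraries, 1 per group. The authors deposited gene-by-barcode matrices of raw UMI counts, whole numbers with no normalization, whose file headers name Cell Ranger 4.0.0. The submitters' processing notes also name the mm10 build and Seurat, whose output was not used here. The sources used here do not say how reads shared by near-identical genes were counted. Total counts per library were 19424073 to 55250651.

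From these counts, barcodes were filtered (at least 500 genes, at most 10% mitochondrial UMIs) and chosen by the stated rule; no doublet caller was run, and mixed barcodes were instead described (haemoglobin at least 10% of UMIs, or another lineage's list at least 1%) and left out in an added comparison chosen after seeing the data. UMIs were summed per group of barcodes, as CPM with exact Poisson intervals, and ratios have exact conditional binomial intervals at 95%. Ratios required 50 UMIs over both sides, a gene at 0 was held at 3 counts per side, and "called" meant 2-fold. Detection was also compared after thinning to 1000 UMIs (seed 1). No test between groups is possible. The scripts were tested on simulated data, in which the intervals were checked on pooled counts without spread between barcodes.

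Members and gene lists were chosen with earlier results of these data known. Named genes were the markers and listed genes, the 15 most enriched in members, the 6 per direction in each subset contrast, the 5 per direction in each library contrast (at least 100 CPM; mitochondrial, ribosomal, haemoglobin and Gm genes left out), and variable segments with at least 3 UMIs. The same ranking was repeated without mixed barcodes. S100a8, S100a9, Ptprc, Irf8, Ms4a6b and genes named to describe single barcodes were chosen after their values were seen where they fall outside this rule. Sequences and coordinates come from the GENCODE annotation and transcripts for mm10 (GRCm38). Python 3.11.15, numpy 2.4.6, scipy 1.17.1, pandas 2.3.3 and matplotlib 3.10.9 were used.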

Additional observations from a re-analysis of the deposited data

How the results depend on the processing

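No paired analysis was possible because each group is 1 library, and no replicate could be left out. Over 21 settings, 184 of 216 recomputed shares and counts stayed within their interval or within 1.5 times the value reported, and 32 did not. Of 2383 recomputed gene ratios over 17 settings, 2193 stayed, 187 moved and 3 reversed. With all members the counts of genes past 2-fold were 95 for PTH against control, 111 for YKL against control, 134 for NK against T and 35 for gamma-delta against alpha-beta barcodes.

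The share of T and NK barcodes depended most on the filters. In control it was 1.63% with 1000 detected genes, 0.461% with a mitochondrial maximum of 5%, 4.59% with no S100a8 and S100a9 limit and 1.74% after thinning to 1000 UMIs. In PTH it was 0.222% with 1000 detected genes. The order control, YKL, PTH did not hold under the 5% mitochondrial maximum, where YKL had the highest share. That maximum left 10 of 2167 kept barcodes as members in control, 3 of 1080 in PTH and 3 of 494 in YKL. Among control members the alpha-beta share was 33.3% with 1000 genes, 26.7% with no S100 limit and 25.5% after thinning, and the NK share 23.7% with no S100 limit. With the 5% mitochondrial maximum the gamma-delta share was 0% of 10 members in control and of 3 in YKL. The PTH alpha-beta share was then 0% and the PTH NK share 100%, both of 3 members. Thinning also left the PTH alpha-beta share at 0%.

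The number of genes past the fold moved with depth and with the minimum. For PTH against control it was 50 with the 5% mitochondrial maximum, 484 with no S100 limit, 23 after thinning, 35 in T barcodes only, 499 with a minimum of 20 UMIs and 224 at 1.5-fold. For YKL it was 176 with 2 UMIs of the selecting genes, 501 with no S100 limit, 15 after thinning, 21 in T barcodes only, 416 with 20 UMIs and 239 at 1.5-fold. NK against T gave 408 with 20 UMIs, and gamma-delta against alpha-beta 146 with 20 UMIs and 59 with all libraries together. Leaving out the mixed barcodes, chosen after seeing the data, gave 52 for PTH, 47 for YKL and 72 for NK against T. Over all PTH and control members, mixed barcodes included, Prf1 stood at least 2-fold higher in PTH, and its ratio turned to 0.863 with 1000 genes. Il7r and Skap1 stood at least 2-fold lower in PTH, and their ratios turned to 1.04 and 1.09 with no S100 limit. A selection without Cd3d, also added after seeing the data, gave 2.34%, 0.470% and 1.32% of kept barcodes in control, PTH and YKL. The cause of these moves was not tested. With 10 and 8 members in PTH and YKL, 1 barcode can decide a ratio.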
